A study of Mus musculus with 10 samples.

Results

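The ion-pumping ATPase genes of the adult mouse cortex were compared between animals with a Chd8 knock-in allele and wild-type animals. They were taken as every gene of the authors' deposited table whose mouse symbol begins with Atp1a, Atp1b, Atp2a, Atp2b, Atp2c, Atp6v or Atp6ap, which gave 33 of 13661 genes. These were 6 sodium-potassium pump genes, 7 calcium pump genes, and 20 genes of the vacuolar proton pump (9 of its V1 sector, 8 of its V0 sector and 3 accessory genes). The study holds 5 Chd8 KI libraries and 5 WT libraries, each from the cortex of a male at 8 weeks of age. The KI allele stands in the study's title as a model of Chd8 duplication, while the sources used here do not give its construction, the strain or any litter. CHD8 is an ATP-dependent chromatin remodeller whose loss-of-function mutations recur in autism. The data are 1 deposited comparison without a value per library, so every value is either a mean over all 10 libraries or a difference between the groups.

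Ion-pumping ATPases spend ATP to move ions against their gradients. The sodium-potassium pump, an alpha subunit with the catalytic site and a beta subunit that takes it to the membrane, restores the gradients that action potentials and synaptic currents run down, and it is among the largest consumers of energy in the brain. Calcium pumps return calcium to the endoplasmic reticulum (SERCA, Atp2a), expel it across the plasma membrane (PMCA, Atp2b) or load it into the Golgi (SPCA, Atp2c). The vacuolar proton pump (V-ATPase) is a rotary machine whose V1 sector splits ATP in the cytosol and whose V0 sector carries protons through the membrane. It acidifies lysosomes and endosomes and energises the filling of synaptic vesicles with transmitter.

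Isoforms of a pump are counted as separate genes on the strength of differences in sequence. Identity was counted over the aligned bases of coding sequences (GENCODE M21), with bases opposite a gap left out. On that count the 4 PMCA genes ran from 72.0% identical for Atp2b1 and Atp2b4 to 78.2% for Atp2b2 and Atp2b3. The SERCA genes Atp2a2 and Atp2a3 were 70.7% identical, and the 3 beta subunits ran from 60.1% to 63.8%. None of these pairs shared a single 100-base word of transcript, so a read of that length would tell them apart. The exception among the members is the proteolipid gene Atp6v0c and its transcribed pseudogene Atp6v0c-ps2, which matched at 464 of 465 aligned bases and shared 266 of the pseudogene's 366 words of 100 bases. The authors' deposited table gave a mean of 7787 normalised counts for Atp6v0c and 229.6 for Atp6v0c-ps2, and because no source used here tells how reads were split between them, both are uncertain.

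By the authors' deposited table (DESeq2 Wald test, Benjamini-Hochberg over all genes), 0 of the 33 pump genes reached an adjusted p under 0.05, in a comparison in which 0.0732% of all genes did (0.00732% higher and 0.0659% lower in KI). All 33 had the same adjusted p, 0.99986. At an unadjusted p under 0.05 there was 1 pump gene, Atp1b3, which is 3.03% of the 33, against 3.22% of all genes tested (1.34% higher and 1.88% lower in KI). Log2 fold changes ran from -0.17 to 0.11 over the 33 genes, with 14 positive, 19 negative and a median of -0.0086, against a median of 0.0025 over all genes, of which 51.6% were positive. Since the column names leave the direction unstated, fold changes were read as KI over WT, on which reading the authors' deposited table has Chd8 itself higher in KI (1.40-fold, 95% interval 1.22 to 1.61, with a DESeq2 adjusted p of 0.0044). RNA from whole cortex cannot tell fewer cells of a type from less RNA per cell.

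**Figure D1:**
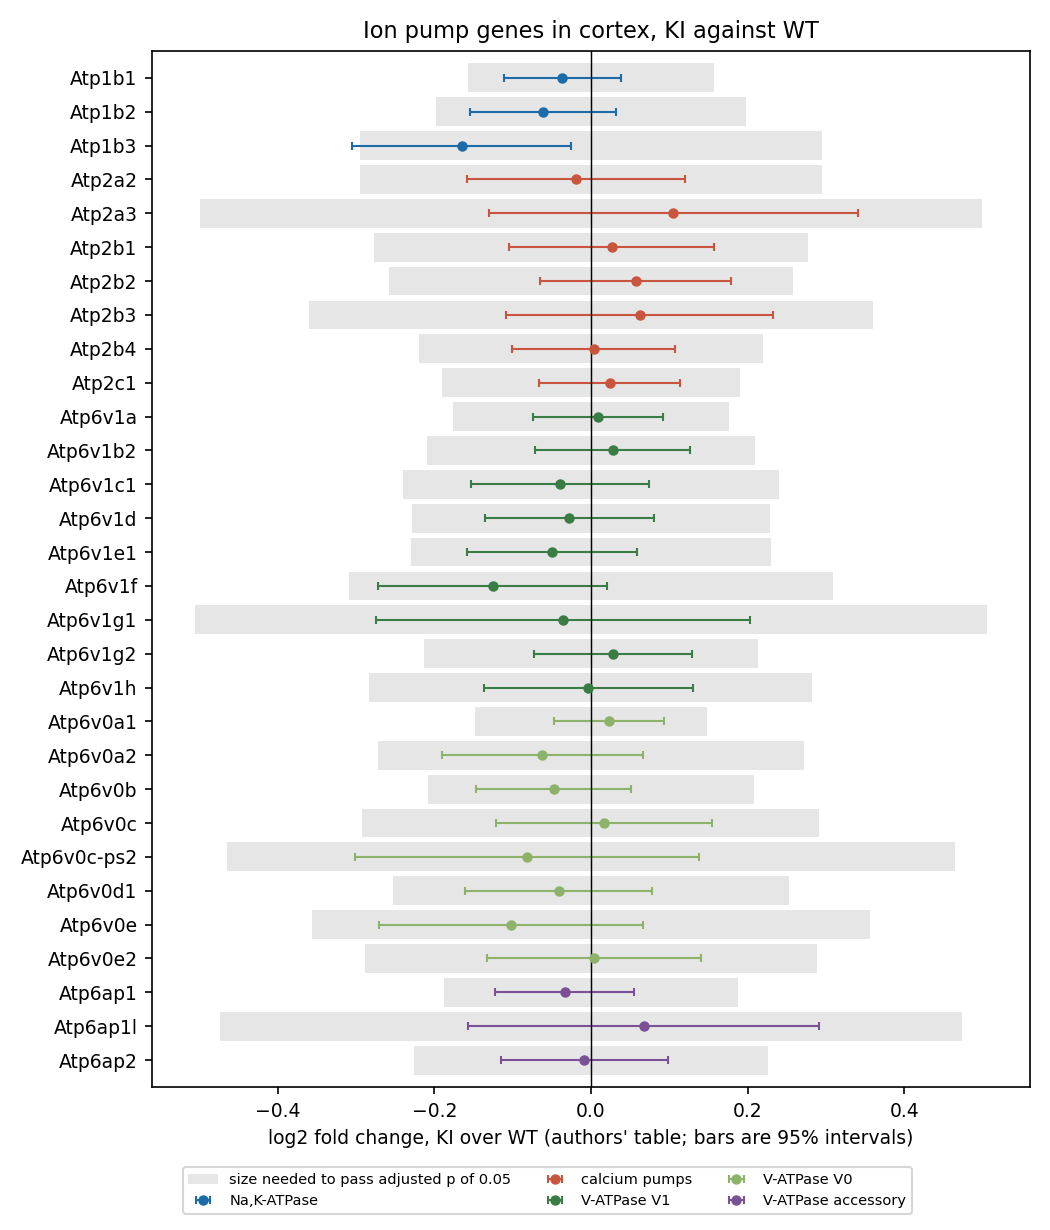
Log2 fold change of each of 30 of the 33 pump genes, KI over WT, with 95% intervals, coloured by pump class; grey bars span the size that a gene with that standard error would have needed to pass an adjusted p of 0.05. All 30 points lie inside their grey bars, and Atp1b3 is the only gene whose interval does not cross 0.

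How small a difference could have been seen was set by the standard errors, which are small for these abundant transcripts. The weakest call in the authors' deposited table had a Wald score of 4.15 in size, and at that size a pump gene would have needed a rise of up to 42.0% (Atp6v1g1) to pass, with a median of 18.1% over the 33. The 95% interval lay wholly within 0.25 of 0 on the log2 scale for 26 of the 33 pump genes (78.8%), against 54.9% of all genes, and within 0.5 for all 33. Pump genes are abundant, and abundance narrows intervals: among those averaging at least 1000 normalised counts, the share was 26 of 28 (92.9%), against 90.5% of the 4617 genes at that level. Point estimates were likewise small, under 0.1 in size for 26 of those 28 genes (92.9%) and for 93.7% of the 4617. Intervals of this kind bound the size of a difference and do not show that expression was equal.

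Of the 6 sodium-potassium pump genes 5 had negative estimates, with a median log2 fold change of -0.032 (-0.020 as a mean weighted by the inverse square of the standard error). All 3 beta subunit genes had negative estimates, and the least abundant of them had the largest. Atp1b3, a widely expressed beta subunit on chromosome 9 (96332655 to 96364431), stood by the authors' deposited table at -0.17 on the log2 scale (standard error 0.071), or -10.8% (95% interval -19.0% to -1.78%), with an unadjusted p of 0.0201. This was the largest difference among the 33 genes, and 90.0% of all genes tested had a fold change no larger in size. The neuronal partner Atp1b1 (chromosome 1, 164437099 to 164458355) stood at -0.036 (standard error 0.038, unadjusted p = 0.336, interval -7.38% to 2.65%) with a mean of 35525 in the authors' deposited table. Atp1b2, a beta subunit and adhesion molecule of glia, stood at -0.062 (standard error 0.048, interval -10.2% to 2.23%) with a mean of 8557 there.

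Neuronal and glial isoforms can be set beside markers of their cells. The neuronal beta subunit Atp1b1 stood at -0.036 and the glial Atp1b2 at -0.062 in the authors' deposited table. Both lay within 0.1 of 0, and no test of a difference between genes was made, because the table holds no covariance between them. Of the markers that check the tissue label, all 6 of excitatory cortical neurons were listed, with a highest mean of 62824 normalised counts for Camk2a in the authors' deposited table. Excitatory markers had a median log2 fold change of 0.071 (5 of 6 positive), inhibitory neuron markers -0.059 (5 of 6 negative), astrocyte markers -0.0038 (3 of 6 negative) and mature oligodendrocyte markers -0.074 (6 of 6 negative). None of these neuronal, astrocyte and oligodendrocyte markers passed the threshold in the authors' deposited table. Those with the smallest p in each list were Camk2a at 0.12 (standard error 0.042), Pvalb at -0.15 (0.079), Aldh1l1 at -0.13 (0.062) and Cnp at -0.10 (0.038) in that deposited table. Markers of tissues next to the cortex had medians of -0.48 for thalamus (6 of 7 negative, 4 past the threshold), -0.28 for meningeal fibroblasts (7 of 7 negative, Igf2 past it) and -0.26 for choroid plexus (7 of 8 negative, none past it). Muscle markers had a median of -0.066 over 4 listed. These marker lists were drawn up with earlier results of these data known. The 4 thalamus genes and Igf2 are among the 10 genes that passed in the whole comparison, so their lists' medians and counts are no independent evidence. The part of any of these tissues in the pump values was not tested.

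The calcium pump genes had positive estimates in 6 of 7 cases, with a median log2 fold change of 0.026, and none passed. Atp2a2, the SERCA pump of the endoplasmic reticulum in most neurons, stood at -0.019 (standard error 0.071, unadjusted p = 0.788, interval -10.4% to 8.68%) with a mean of 22421 in the authors' deposited table. Atp2a3, a SERCA pump best known from blood and endothelial cells, had a mean of only 157 and the highest estimate of the 33 genes, 0.11 (standard error 0.12, interval -8.65% to 26.6%), in the authors' deposited table. That interval is among the widest of the 33 and includes 0.

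All 4 plasma membrane calcium pump genes had positive estimates in the authors' deposited table, each within its standard error of 0. The housekeeping isoform Atp2b1 stood at 0.026 (standard error 0.067, unadjusted p = 0.692, interval -6.99% to 11.5%) with a mean of 18566 in the authors' deposited table. Atp2b2, a neuronal isoform whose loss causes deafness and ataxia in mice, stood at 0.057 (standard error 0.062, unadjusted p = 0.360, interval -4.41% to 13.2%) with a mean of 15194 there. Atp2b3, the other brain-enriched isoform, stood at 0.062 (standard error 0.087) and the broadly expressed Atp2b4 at 0.0034 (0.053) in the authors' deposited table. The Golgi calcium and manganese pump Atp2c1 stood at 0.024 (standard error 0.046, unadjusted p = 0.605, interval -4.47% to 8.18%) with a mean of 3607 in the same deposited table.

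In the V1 sector of the proton pump, 6 of 9 genes had negative estimates, with a median of -0.028, which was -0.016 for genes averaging at least 1000 normalised counts and -0.013 as a mean weighted by precision. The catalytic hexamer genes Atp6v1a and Atp6v1b2 stood at 0.0087 (standard error 0.042) and 0.028 (0.050) in the authors' deposited table. Of the rotor genes, Atp6v1d stood at -0.028 (0.055) and Atp6v1f at -0.13 (0.075) in the authors' deposited table. Atp6v1f had the smallest p of the sector (unadjusted p = 0.0918, interval -17.2% to 1.43%, mean 1496, chromosome 6 from 29467783 to 29470509). The peripheral stalk genes Atp6v1e1, Atp6v1g1 and Atp6v1g2 stood at -0.049 (0.055), -0.036 (0.12) and 0.028 (0.051) in the authors' deposited table. Atp6v1g2, the brain form of the G subunit, had an interval of -4.88% to 9.35% with a mean of 8218 and an unadjusted p of 0.580. The regulatory subunit genes Atp6v1c1 and Atp6v1h stood at -0.040 (0.058) and -0.0036 (0.068) in that deposited table.

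In the V0 sector 5 of 8 genes had negative estimates, with a median of -0.044, and the larger estimates were those of less abundant genes. The V0 value was -0.019 for genes averaging at least 1000 normalised counts, -0.018 as a mean weighted by precision and -0.021 relative to the length class. Atp6v0a1, the stator subunit of nerve terminals, had the smallest standard error of the whole pump, at 0.023 (standard error 0.036, interval -3.21% to 6.68%) in the authors' deposited table, against -0.062 (0.065) for Atp6v0a2 of the Golgi and endosomes. The proteolipid ring genes Atp6v0c and Atp6v0b stood at 0.017 (0.070) and -0.048 (0.050) in the authors' deposited table, the second with a mean of 4088, an unadjusted p of 0.341 and an interval of -9.64% to 3.57%. The authors' deposited table gave -0.041 (0.061) for Atp6v0d1, which joins the ring to the rotor. The small membrane subunit Atp6v0e stood at -0.10 (0.086, unadjusted p = 0.237, interval -17.1% to 4.73%, mean 299) and its brain-enriched form Atp6v0e2 at 0.0037 (0.070, mean 7141) in the authors' deposited table. The pseudogene Atp6v0c-ps2 stood at -0.082 (0.11) there.

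Among the accessory genes, Atp6ap1 stood at -0.034 (standard error 0.045, unadjusted p = 0.456, interval -8.15% to 3.89%) with a mean of 7229 in the authors' deposited table. Atp6ap2, the prorenin receptor, stood at -0.0083 (0.054) and the little-studied Atp6ap1l at 0.067 (0.11) in that deposited table. Over V1, V0 and accessory genes together 13 of 20 estimates were negative, with a median of -0.031.

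Levels differed widely between the isoforms of a family. Per kilobase of the longest transcript, Atp1b1 had the highest level of the 32 pump genes with a length, at 13769 mean normalised counts per kilobase, 16th of 13098 genes. Of the summed beta subunit level per kilobase Atp1b1 made up 80.9%, Atp1b2 13.4% and Atp1b3 5.65%. The deposited means carry no spread over libraries, so which neighbours in these orders differ beyond their spread cannot be given.

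Calcium pump levels were led by Atp2a2 at 3951 per kilobase, 116 times that of Atp2a3 (34.0). Among the plasma membrane pumps the levels were 2604 per kilobase for Atp2b1, 1712 for Atp2b2, 610 for Atp2b3 and 565 for Atp2b4, and Atp2c1 stood at 639. The ratio of Atp2b1 to Atp2b2 was 1.52 with the longest transcript, 4.29 with the median transcript length and 1.01 with all exons merged, an alternative chosen after seeing the data, so their order is not settled by these values. Atp2b4 over Atp2b3 was 0.927 with the longest transcript but 2.66 with the median length, so that order turned as well. Atp2b1 over Atp2b3 was 4.27 with the longest transcript, 20.2 with the median length and 2.08 with merged exons. The longest Atp2c1 transcript shares 30.5% of its 100-base words with transcripts of Aste1, and that of Atp1b1 shares 15.2% with transcripts of Nme7, which lowers the certainty of both levels.

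Within the proton pump the forms known from brain stood above their paralogs. Atp6v1g2 stood at 4366 per kilobase against 470 for Atp6v1g1 (ratio 9.29), Atp6v0a1 at 2669 against 203 for Atp6v0a2 (ratio 13.1), and Atp6v0e2 at 3992 against 106 for Atp6v0e (ratio 37.6). With the median transcript length these ratios were 16.8, 3.81 and 11.4, in the same direction. The other subunits of V1 and V0 lay between 818 for Atp6v1h and 4088 for Atp6v0b, with Atp6v1b2 at 3885, Atp6v1a at 3114 and Atp6v0c at 3034. The order of the last against Atp6v0b (ratio 0.742) turned with the median transcript length (2.1) and with merged exons (1.15). Atp6v1a over Atp6v1b2 was 0.802 with the longest transcript, 0.424 with the median length and 1.05 with merged exons, which turns their order. A further 12 genes of these families in the annotation were not among the rows analysed here, among them Atp2a1 of fast muscle, and Atp6v0a4, Atp6v1b1 and Atp6v1g3, known from kidney. The lowest mean in the table was 24.4.

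**Figure D2:**
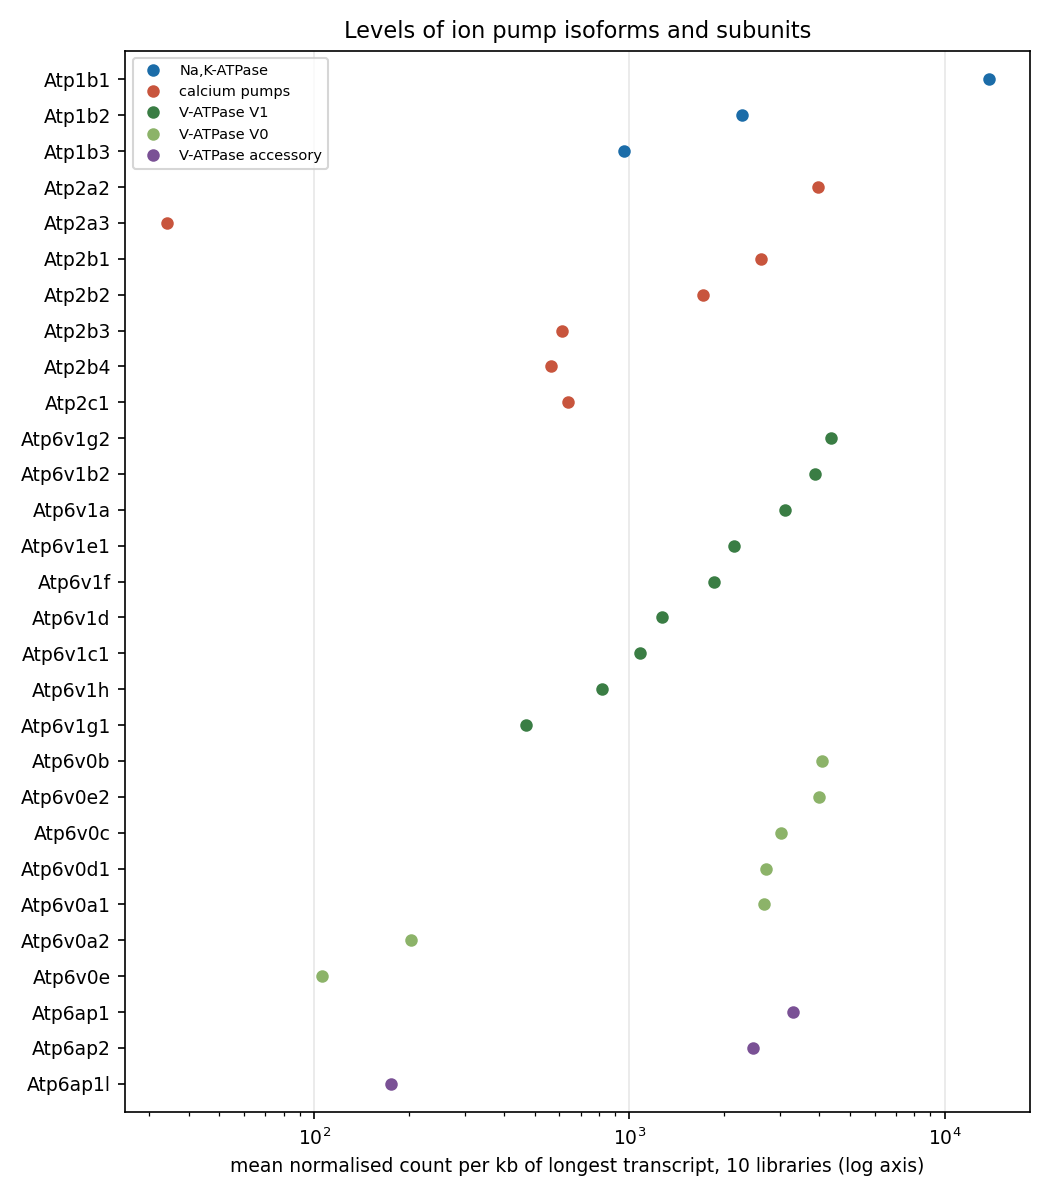
Mean normalised count per kilobase of the longest transcript over all 10 libraries (log axis) for 29 of the 32 pump genes with a length, ordered by level within each family. Atp1b1 lies highest, at 13769, and Atp2a3 lowest, at 34.0.

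Transcript length moved with the fold changes over the whole table and differs between the pump classes. Genes with a longest transcript of up to 2795 bases had a median log2 fold change of -0.020 (39.6% positive), those from 2796 to 4452 bases 0.00041 (50.3% positive), and longer ones 0.023 (64.0% positive). All 7 calcium pump genes fell in the long class, and relative to its median their own median was 0.0038 in place of 0.026. Of the 12 pump genes in the short class 8 were negative (median -0.035), of the 9 in the middle class 5 (median -0.028), and of the 11 in the long class 5 (median 0.0034). Across the 32 genes with a length, Spearman's rho between length and log2 fold change was 0.305, and across 13098 genes 0.236. These are descriptions across genes of the same libraries, and genes are not independent replicates. The part of length in the pump values was not tested.

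**Figure D3:**
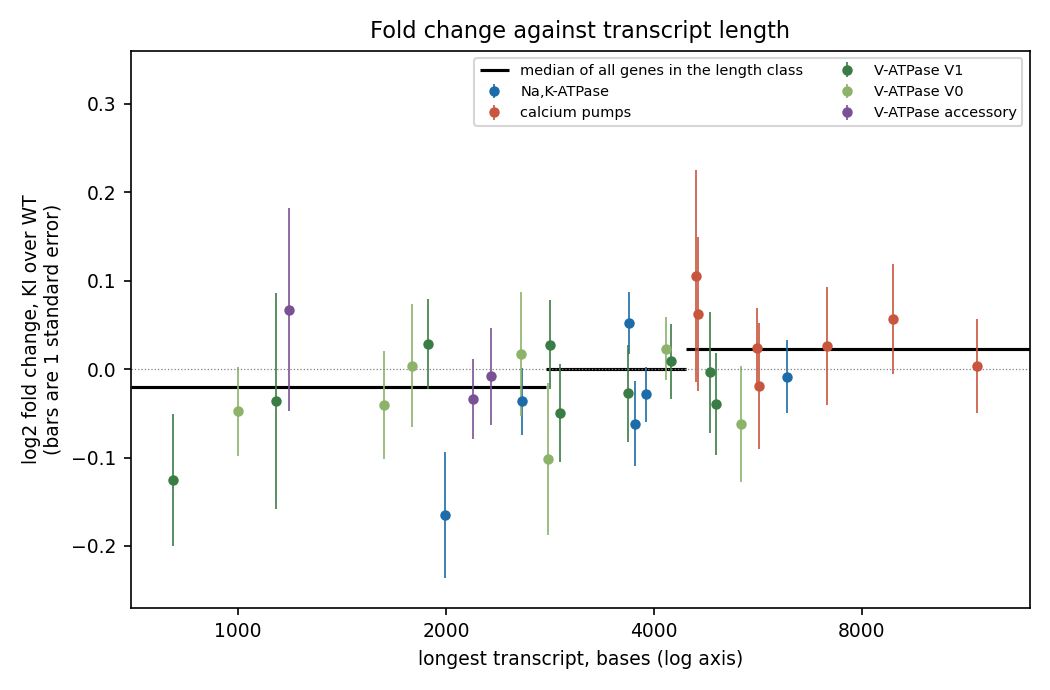
Log2 fold change, KI over WT, against the longest transcript (log axis) for 32 pump genes, with bars of 1 standard error; black lines are the medians of all genes in 3 length classes. The class medians step from -0.020 to 0.023, and the 7 calcium pump genes all lie in the long class.

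Genes that work with the pumps were given beside them, from lists of partners, and none of the genes tested in these 7 lists passed the threshold in the authors' deposited table. At an unadjusted DESeq2 Wald p under 0.05 stood 2 of 14 sodium-gradient and potassium transporters (14.3%) and 1 of 28 calcium handling partners (3.57%). So did 2 of 10 vesicle transporters (20%), 1 of 20 further P-type genes (5%) and 0 in the other lists, against 3.22% of all genes tested. No difference between lists was tested. Partners of the sodium-potassium pump, chiefly the FXYD and NKAIN proteins that bind it, had a median of 0.027 over 9 genes tested of 12, 6 of them positive. Fxyd7, a brain regulator of the pump, stood at 0.085 (standard error 0.075), Nkain1 at -0.057 (0.061) and Fxyd6 at 0.051 (0.073) in the authors' deposited table. Transporters that live off the sodium gradient or clear potassium had a median of 0.016 over 14 genes, 10 of them positive. Among them the neuronal glutamate transporter Slc1a1 stood at -0.10 (0.046, unadjusted p = 0.0284), the GABA transporter Slc6a11 at -0.13 (0.063, unadjusted p = 0.0406) and the bicarbonate transporter Slc4a10 at 0.087 (0.051) in the authors' deposited table.

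Calcium handling partners (exchangers, release channels, store-operated entry and calmodulins) had a median of 0.0090 over 28 genes, 16 of them positive. The store-operated channel gene Orai2 had the smallest p among them, at 0.16 (standard error 0.054, unadjusted p = 0.0033, DESeq2 adjusted p = 0.867), and the authors' deposited table gave 0.13 (0.066) for the release channel Itpr1 and 0.059 (0.046) for the sodium-calcium exchanger Slc8a2. Assembly factors and regulators of the proton pump had a median of -0.018 over 22 genes, 12 of them negative, with no unadjusted p under 0.05. Meak7 stood at -0.17 (0.11), Tbc1d24 at 0.096 (0.065) and the assembly factor Tmem199 at -0.074 (0.063) in the authors' deposited table. Vesicle transporters that run on the proton gradient, with the SV2 proteins, were 5 positive and 5 negative (median -0.0035), with the glutamate transporter Slc17a6 at -0.32 (0.11, unadjusted p = 0.0033, adjusted p = 0.867), Slc30a3, a zinc transporter, at 0.15 (0.070) and Slc18a2, a monoamine transporter, at -0.23 (0.14) in the authors' deposited table. Slc17a6 also stands in the thalamus list, whose median was -0.48.

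Other ATPases were listed too, and no difference between their kinds was tested. The further P-type genes with the flippase partner Tmem30a, chiefly lipid flippases, had a median of 0.046 over 20 genes, 15 of them positive, with the flippases Atp8a2 at 0.19 (standard error 0.091, unadjusted p = 0.0321), Atp8a1 at 0.10 (0.068) and Atp10b at 0.26 (0.19) in the authors' deposited table. The mitochondrial F-type ATP synthase, the rotary relative of the V-ATPase that makes ATP, had a median of -0.053 over 18 genes, 15 of them negative, with Atp5e at -0.20 (0.11), Atp5mpl at -0.12 (0.076) and Atp5pb at -0.079 (0.063) in the authors' deposited table. Median transcript lengths were 5874.5 bases for the further P-type genes and 1553.5 bases for the ATP synthase, against 5674 bases for the calcium pumps, 3715 for the sodium-potassium pump and 2567 for the V-ATPase.

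**Figure D4:**
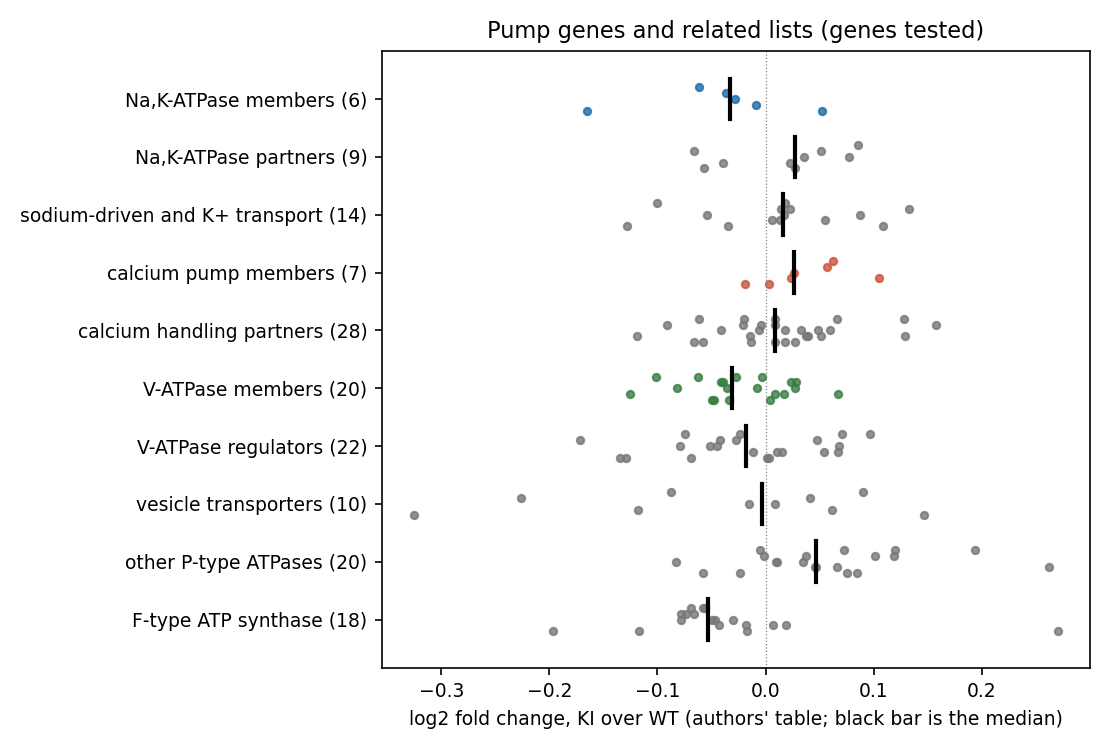
Log2 fold change, KI over WT, of each gene tested in the 3 pump classes (coloured) and in 7 related lists (grey); black bars are medians and the numbers of genes tested stand in brackets. The medians run from -0.053 for the F-type ATP synthase to 0.046 for the further P-type ATPases, and the pump classes lie at -0.032, 0.026 and -0.031.

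Promoters of the pump genes were searched because lysosomal genes, V-ATPase subunits among them, are known targets of the transcription factor TFEB, which binds the CLEAR motif. The letters GTCACGTG, the core of that motif, were searched on both strands in the RefSeq promoter windows around each start site (GRCm38.p6), and the shorter CACGTG, which GTCACGTG contains, as well. Promoters were listed for 20 of the 33 genes. GTCACGTG stood in 3 of the 20, against 2.55% of 27025 genes with a promoter, and CACGTG in 6 of the 20, against 8.09% of all. The 3 GTCACGTG matches are printed with 10 bases on each side, the motif in capitals, 5′ to 3′ on the gene's strand.
Atp6v0b, chr4:117887350-117887377, minus strand: gtgcgcggggGTCACGTGgggtcggcgc
Atp6v0d1, chr8:105566052-105566079, minus strand: ccctactgcgGTCACGTGagacgcggtg
Atp2b1, chr10:98914638-98914665, plus strand: cgcgggccgcGTCACGTGaccgcgccca
The CACGTG matches without the longer motif were in Atp6v0e, Atp6v1a and Atp1b3, and in Atp6v0b at a separate site from its longer match. The log2 fold changes of the 3 genes with GTCACGTG were -0.048 for Atp6v0b, -0.041 for Atp6v0d1 and 0.026 for Atp2b1 in the authors' deposited table, within 1 standard error of 0 in each case. Tfeb itself stood at -0.045 (standard error 0.13) there. A match is a description of letters and does not show binding.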

How the data were processed

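Cortex RNA of 5 KI and 5 WT mice was sequenced from poly(A) RNA, and titles gave the groups. Per the submitters' processing notes, the tools were Trimmomatic 0.39, HISAT2 2.1.0, featureCounts 2.0.0 and DESeq2 1.26.0 on the build mm10. Not given in the sources used here are settings, annotation, strand use, the treatment of reads with several matches and any filter. No count per library was analysed here, which leaves library depth unknown and allows no SD.

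The authors' deposited table holds, per the file headers, the mean normalised count (a signal averaged over libraries after the authors' size factors), the log2 fold change and its standard error, the Wald score, and the p-value and adjusted p-value. Adjusting the deposited p-values of 13660 genes by Benjamini-Hochberg gave the deposited adjusted values. The threshold was an adjusted p of 0.05 with no fold minimum. The per-library count model that the design foresaw for counts was therefore not run.

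Symbols came from the RefSeq annotation of GRCm38.p6, the assembly behind mm10, which named 13497 of 13661 gene numbers. Transcript lengths and coding sequences came from GENCODE M21, matched by gene number, and covered 32 of the 33 pump genes. Intervals (95%) assume normal errors of the deposited log2 values. Levels are deposited means divided by the longest transcript in kilobases. Coding sequences were aligned pairwise with Biopython 1.88, and other steps used Python 3.11.15 with pandas 2.3.3. The re-adjustment of p-values was tested on simulated data.

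The pump genes, the related gene lists, the marker lists and the tests were chosen with earlier results of these data known. Genes given in full were, in each family, the one with the smallest p and the most abundant per kilobase, plus any with an unadjusted p under 0.05. From each related list the 3 smallest p were named. Members named beyond these, Atp6v0c-ps2 among them, were chosen after their values were seen. Some genes and sequences that these rules select are counted but not reported here.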

Additional observations from a re-analysis of the deposited data

How the results depend on the processing

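The count of pump genes past the threshold was 0 at adjusted p thresholds of 0.1 and 0.01 and with count minimums of 50 and 200, and 1 (Atp1b3) at an unadjusted p under 0.05. Because all 33 share a DESeq2 adjusted p of 0.99986, the 2 other adjusted thresholds could not have given another count. The medians over all members and by pump class were recomputed under 6 other settings each. All 36 values moved by less than the median standard error of their set, by at most 0.026 (V0, from -0.044 to -0.018 as a precision-weighted mean). That yardstick is lenient, being larger than every one of these medians in size. Filters that removed no gene of a set could not move its median, and subtracting the median of all genes shifted each by only 0.0025. Relative to its length class the calcium median fell from 0.026 to 0.0038. In 35 of the 36 the sign was the same, the exception being the accessory genes relative to their length class (0.012). Levels depended more on the length used. With the median transcript length the ratios were 4.29 for Atp2b1 over Atp2b2, 3.81 for Atp6v0a1 over Atp6v0a2, 16.8 for Atp6v1g2 over Atp6v1g1, 11.4 for Atp6v0e2 over Atp6v0e and 2.1 for Atp6v0c over Atp6v0b (0.742 with the longest transcript). With merged exons, an alternative chosen after seeing the data, Atp2b1 over Atp2b2 was 1.01 and Atp6v0c over Atp6v0b 1.15. The cause was not tested. No paired analysis was possible because the table holds 1 comparison and no value per library, and for the same reason no replicate could be left out and no other count model was run. The depth of each library is unknown.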

Other observations

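Atp2b2 is the pump gene nearest to a gene past the threshold in the authors' deposited table, lying 667 kb from Gt(ROSA)26Sor on chromosome 6, and this pair was singled out after the values were seen. The authors' deposited table put Gt(ROSA)26Sor at -0.72 on the log2 scale (DESeq2 adjusted p = 9.56e-04) and Atp2b2 at 0.057. The next nearest was Atp6v1b2, 1769 kb from Slc5a5 on chromosome 8.

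Of the pump genes, 2 overlap another gene of the table. In the RefSeq annotation Atp6v1g2 overlaps Nfkbil1 by 1551 bases and Atp1b1 overlaps Nme7 by 202 bases, and without strand information their reads cannot be told apart there. Nfkbil1 had a mean normalised count of 215 against 8218 for Atp6v1g2, and Nme7 473 against 35525 for Atp1b1, in the authors' deposited table.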
